A study of Mus musculus with 42 samples.

Results

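Cytochrome P450 genes were taken as the protein-coding genes of GENCODE vM21 on the autosomes whose symbol is Cyp followed by a digit. There were 100 of them among 20807 autosomal protein-coding genes, and a gene was counted as lying in a lamina-associated domain (LAD) of a library when its transcription start site fell inside a LAD called in that library. Lamin B1 (LMNB1) ChIP-seq had been done on liver pieces of wild-type C57Bl/6 mice kept in 12 h light and 12 h dark. Non-synchronized (NS) mice were killed at noon on the day before food was withdrawn, and all other mice had gone without chow for 24 h, with food given back at circadian time 0 (CT0). Livers at CT0, CT6, CT12, CT18, CT24 and CT30 and from NS mice were represented by 2 mice each, 14 libraries in all. The labels call the mice female in some fields and male in the protocol, and the age is not given in the sources used here. Every mouse was intact and unmodified, and fasting, refeeding and time are the planned conditions that separate the groups. Libraries also differed in the bin size of the LAD calls, given below, and in the number in their deposited names. Whole liver tissue was used, with all of its cell types together. LAD intervals carry no expression values, so the liver identity of the samples could not be checked against marker genes.

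P450 enzymes are haem proteins of the endoplasmic reticulum and mitochondria that oxidise lipophilic substrates with electrons passed on by redox partners. Liver holds the largest store of them, where members of the families Cyp1 to Cyp3 clear drugs and other foreign compounds, members of Cyp4 oxidise fatty acids, and single-copy members make bile acids, sterols and the active forms of vitamins and hormones. Many of the drug-metabolising genes arose by tandem duplication and sit in clusters. LADs are long stretches of chromatin at the nuclear envelope, commonly poor in genes and low in transcription.

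The members formed 34 loci when genes less than 1 Mb apart were joined. Of these loci, 24 had a single member, and 7 loci of 8 or more members held 69 of the 100 genes. Genes of 1 cluster share the same LADs and are therefore not independent of each other. Libraries held 86 to 341 LADs that covered 335 to 663 Mb. The LAD borders lay on a grid with a step (bin size) of 4 to 61 kb. According to the methods, the LAD caller (EDD) estimated the bin size from each library in repeated runs. The authors then used the average for the final calls. The files list start and end of each LAD and no read count or score, so the depth is unknown and the precision rests on 2 mice per time point.

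Cyp genes were rarely found in LADs. In 11 of the 14 libraries, 0 of the 100 members had the start site in a LAD. The exceptions were NS replicate 1 with 1 member, NS replicate 2 with 6 members and CT12 replicate 1 with 10 members. Of all autosomal protein-coding genes, 4.18% were in a LAD in NS replicate 1 and 8.28% in NS replicate 2. The corresponding shares were 5.54% and 8.62% in the CT0 replicates, 7.3% and 10.2% at CT6, 8.51% and 9.85% at CT12, 9.79% and 10.8% at CT18, 9.48% and 8.2% at CT24, and 6.31% and 5.79% at CT30. The share of Cyp genes was thus below that of all genes in 13 of 14 libraries and above it in CT12 replicate 1 alone. By time point the number of members in a LAD was 3.5 ± 3.54 (SD, n = 2) in NS mice, 5 ± 7.07 at CT12 and 0 in both mice at the other 5 time points.

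**Figure D1:**
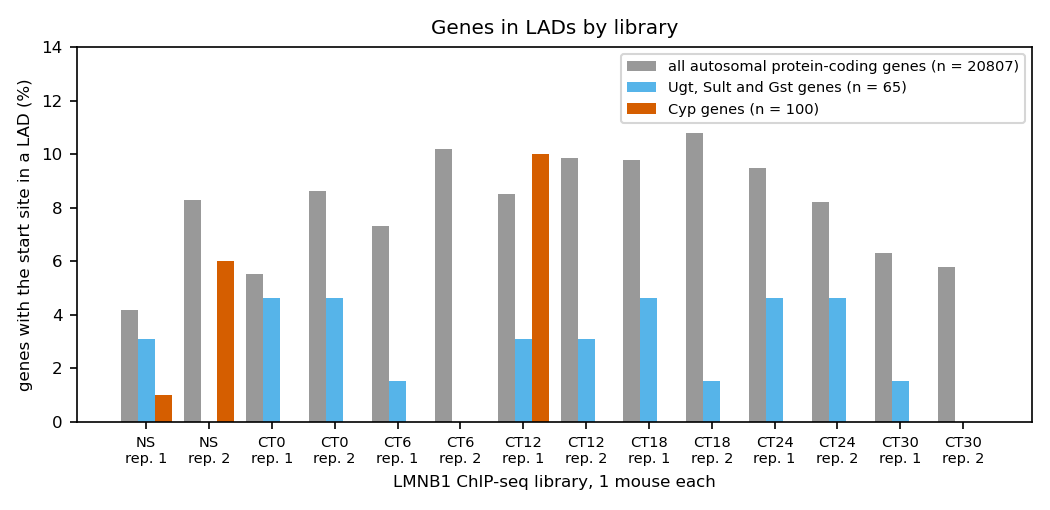
Bars give the percentage of genes with the start site in a LAD (y axis) in each of the 14 libraries (x axis, 1 mouse each) for all autosomal protein-coding genes in grey, Ugt, Sult and Gst genes in blue and Cyp genes in orange. Cyp bars appear in NS replicate 1 (1%), NS replicate 2 (6%) and CT12 replicate 1 (10%) and are 0 in the other 11 libraries, where the grey bars stand between 5.54% and 10.8%.

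Summed over libraries, a member was in a LAD in 17 of 1400 placements (1.21%), against 8.06% of placements for all genes. In at least 1 library, 11 of 100 members were in a LAD, while 17.1% of all genes were. No member was in a LAD in all 14 libraries, a state that 0.875% of all genes had, and 0 members reached 7 libraries, against 8.20% of all genes. The remaining 89 members were outside LADs in every library. These counts are descriptions without a test, because the members were chosen with earlier results of these data known. In addition, 10 of the 11 genes come from a single locus. The glucuronosyl-, sulfo- and glutathione transferase genes (Ugt, Sult and Gst), further clustered enzymes of drug metabolism, were in a LAD in at least 1 library for 9 of 65 genes (13.8%) and in 2.64% of placements. Of these 65 genes, too, 0 were in a LAD in 7 or more libraries.

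The members found in LADs were nearly all Cyp2c genes, which encode enzymes for drugs and for the epoxidation of arachidonic acid. The Cyp2c locus on chromosome 19 holds 14 members whose start sites extend from 39007019 (Cyp2c55) to 40187333 (Cyp2c70) in the mm10 build. In NS replicate 2, a LAD from 39348001 to 39908000 held the start sites of Cyp2c38, Cyp2c39, Cyp2c67, Cyp2c68, Cyp2c40 and Cyp2c69. In CT12 replicate 1, a LAD from 39225001 to 40185000 held the same 6 genes together with Cyp2c29, Cyp2c37, Cyp2c54 and Cyp2c50. Each of these LADs contained the start sites of Cyp2c genes and of no other protein-coding gene. Both were shorter than the median LAD of their library. Lengths were 0.56 Mb against a median of 0.984 Mb in NS replicate 2 and 0.96 against 1.22 Mb in CT12 replicate 1. Of the LADs in these libraries, 25.3% and 40.4% were shorter still. In the other 12 libraries no LAD overlapped either interval. The second mouse of each time point was among these 12, with the nearest LAD 8.01 Mb from Cyp2c39 in NS replicate 1 and 3.43 Mb in CT12 replicate 2.

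The borders of the LAD in CT12 replicate 1 coincided with the ends of the locus only in part. Cyp2c55, Cyp2c65 and Cyp2c66, at the left end, lay 218, 164 and 111 kb outside it. Cyp2c70, the gene for the enzyme that makes muricholic acids in mouse liver, began 2.33 kb past its right border. None of the 23 other protein-coding genes within 1 Mb of the locus was in a LAD in any library. The isolated member Cyp2c23, further along the chromosome, was 0.619 Mb from a LAD in CT12 replicate 1 and 3.49 to 6.47 Mb from one in the other libraries.

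**Figure D2:**
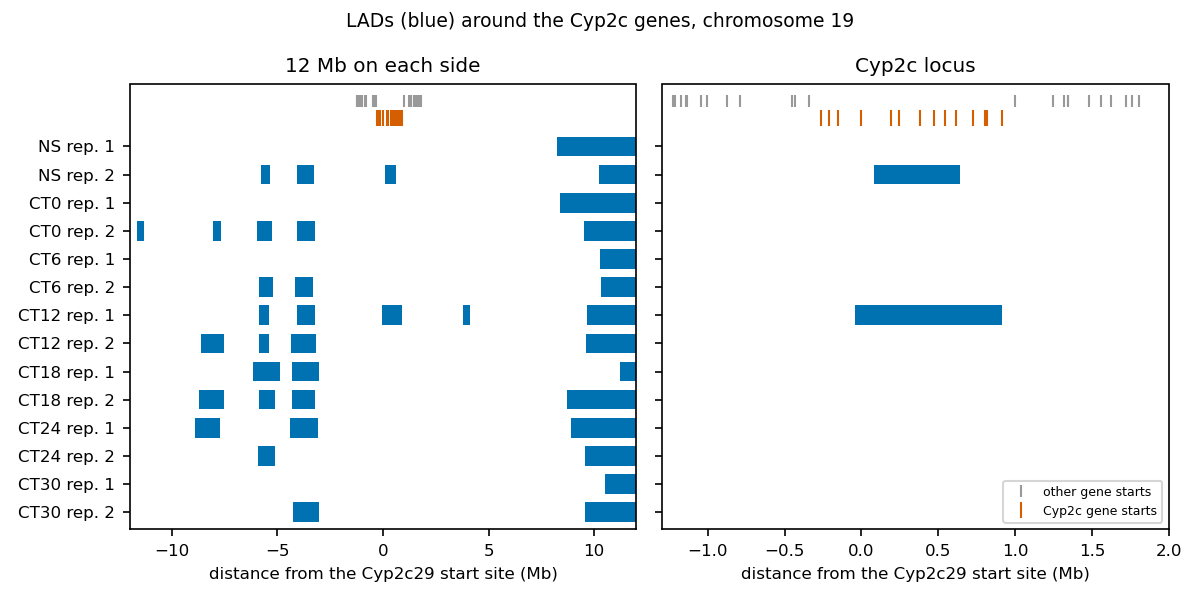
LADs on chromosome 19 are drawn as blue bars for each library (y axis) against the distance from the Cyp2c29 start site in Mb (x axis), 12 Mb to each side on the left and the locus itself on the right, with start sites of Cyp2c genes as orange ticks and of other genes within 1 Mb as grey ticks. A LAD covers Cyp2c genes in NS replicate 2 (6 genes) and CT12 replicate 1 (10 genes), and most other libraries have LADs to the left at 2.76 Mb or more from Cyp2c55 or only a LAD far to the right.

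Elsewhere on the chromosome the neighbouring LADs set the distance of the whole locus. In the 12 libraries without a LAD in the locus, the nearest LAD was on the left in 8 and on the right in 4, at 2.76 to 9.60 Mb. Cyp2c29, an abundant liver enzyme induced by foreign compounds, was 8.25 Mb and 0.0786 Mb from the nearest LAD in the NS mice and 8.39 and 3.24 Mb in the CT0 mice. At CT6 it was 10.3 and 3.31 Mb away, at CT12 0 (inside) and 3.19 Mb, and at CT18 3.02 and 3.21 Mb. The CT24 mice gave 3.09 and 5.11 Mb and the CT30 mice 10.5 and 3.02 Mb. The 2 mice thus differed more than 2-fold at NS, CT0, CT6, CT12 and CT30, and a difference between time points was not detected (F ratio 1.19, exact permutation test, p = 0.512, adjusted p = 0.922). The 4 libraries with the nearest LAD on the right were replicate 1 of NS, CT0, CT6 and CT30, with bin sizes of 31 to 61 kb. CT30 replicate 2, with 46 kb, had its nearest LAD on the left, and the part of the bin size was not tested.

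The calls at the Cyp2c locus rest on few libraries and on LADs shorter than the library median. NS replicate 2 and CT12 replicate 1 both carry the number 3 in their deposited names, as does CT0 replicate 2, in which 0 members were in a LAD. Bin sizes of these 3 libraries were 4, 5 and 4 kb, and those of the other libraries were 6 to 61 kb. Without the 3 libraries, 1 member (Cyp24a1) remained in a LAD in any library, and without CT12 replicate 1 alone 7 did. When LADs under 1 Mb were set aside, Cyp24a1 was also the only member left. This limit lies just above the 0.96 Mb LAD of CT12 replicate 1 and the median LAD length of NS replicate 2 (0.984 Mb). The part of the bin size in the result was not tested.

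Start-site sequences of 3 Cyp2c genes are given to show the locus from inside to outside the LADs, beside Cyp51, the sterol demethylase gene with a CpG-rich start. Windows run from 250 bases before to 50 bases after the RefSeq start site (300 bases, GRCm38.p6, written 5′ to 3′ in the direction of the gene), and capitals mark CpG dinucleotides. Cyp2c29 (chr19:39286835-39287134, plus strand) lay in the LAD of CT12 replicate 1, Cyp2c39 (chr19:39510572-39510871, plus strand) in both LADs, Cyp2c70 (chr19:40187237-40187536, minus strand) just beyond the border, and Cyp51 (chr5:4104648-4104947, minus strand) in no LAD.
Cyp2c29: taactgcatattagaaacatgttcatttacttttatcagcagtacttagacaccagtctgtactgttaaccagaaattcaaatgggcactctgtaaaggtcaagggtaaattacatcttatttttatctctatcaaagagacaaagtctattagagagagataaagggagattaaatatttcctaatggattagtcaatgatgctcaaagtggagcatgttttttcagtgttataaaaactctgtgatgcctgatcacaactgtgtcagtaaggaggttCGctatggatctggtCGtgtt
Cyp2c39: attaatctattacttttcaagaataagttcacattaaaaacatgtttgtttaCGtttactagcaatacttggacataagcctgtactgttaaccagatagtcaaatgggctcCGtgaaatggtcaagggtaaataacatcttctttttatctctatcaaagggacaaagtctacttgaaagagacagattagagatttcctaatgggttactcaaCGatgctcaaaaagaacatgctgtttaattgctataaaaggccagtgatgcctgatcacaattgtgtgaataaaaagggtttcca
Cyp2c70: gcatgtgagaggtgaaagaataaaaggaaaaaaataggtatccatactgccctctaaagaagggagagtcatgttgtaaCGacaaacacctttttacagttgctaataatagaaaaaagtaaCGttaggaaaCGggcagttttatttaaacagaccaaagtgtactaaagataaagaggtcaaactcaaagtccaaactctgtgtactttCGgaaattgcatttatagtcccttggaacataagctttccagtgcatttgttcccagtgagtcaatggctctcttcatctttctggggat
Cyp51: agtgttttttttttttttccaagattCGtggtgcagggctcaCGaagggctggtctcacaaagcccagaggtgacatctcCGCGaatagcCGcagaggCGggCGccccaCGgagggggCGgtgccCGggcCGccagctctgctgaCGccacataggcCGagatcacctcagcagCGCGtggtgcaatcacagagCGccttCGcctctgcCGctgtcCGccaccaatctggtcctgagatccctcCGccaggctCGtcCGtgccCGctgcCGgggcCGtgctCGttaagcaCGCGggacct
The windows held 2, 3, 4 and 28 CpG dinucleotides. The motif TATAAA occurs in those of Cyp2c29, Cyp2c39 and Cyp2c70 on at least 1 strand, and AGGTCA, the core letters of many nuclear receptor sites, in those of Cyp2c29 and Cyp2c70. RefSeq places the Cyp2c29 start 17680 bp downstream of the GENCODE start used for the LAD state, and both positions are inside the LAD of CT12 replicate 1.

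Cyp24a1, whose product inactivates vitamin D, was the only member outside the Cyp2c locus found in a LAD. Its start site at 170497145 on chromosome 2 (minus strand) lay 124 kb inside the left border of a LAD from 170373001 to 172447000 in NS replicate 1, together with 11 other genes, among them Aurka, Dok5 and Cbln4. The other libraries fell into near and far positions. In CT30, both mice had a LAD just to the right of the gene, 0.0649 and 0.0249 Mb away. A LAD on the same side was 0.410 Mb away in CT6 replicate 2 and 0.401 Mb away in CT18 replicate 2 and CT24 replicate 1. In the remaining 8 libraries the nearest LAD was 4.45 to 30.8 Mb away. Near positions occurred in 6 libraries, with bin sizes of 6 to 61 kb, and in both mice at CT30 only. A difference between the time points from CT0 onward was not detected (F ratio 1.39, exact permutation test, p = 0.357, adjusted p = 0.922).

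**Figure D3:**
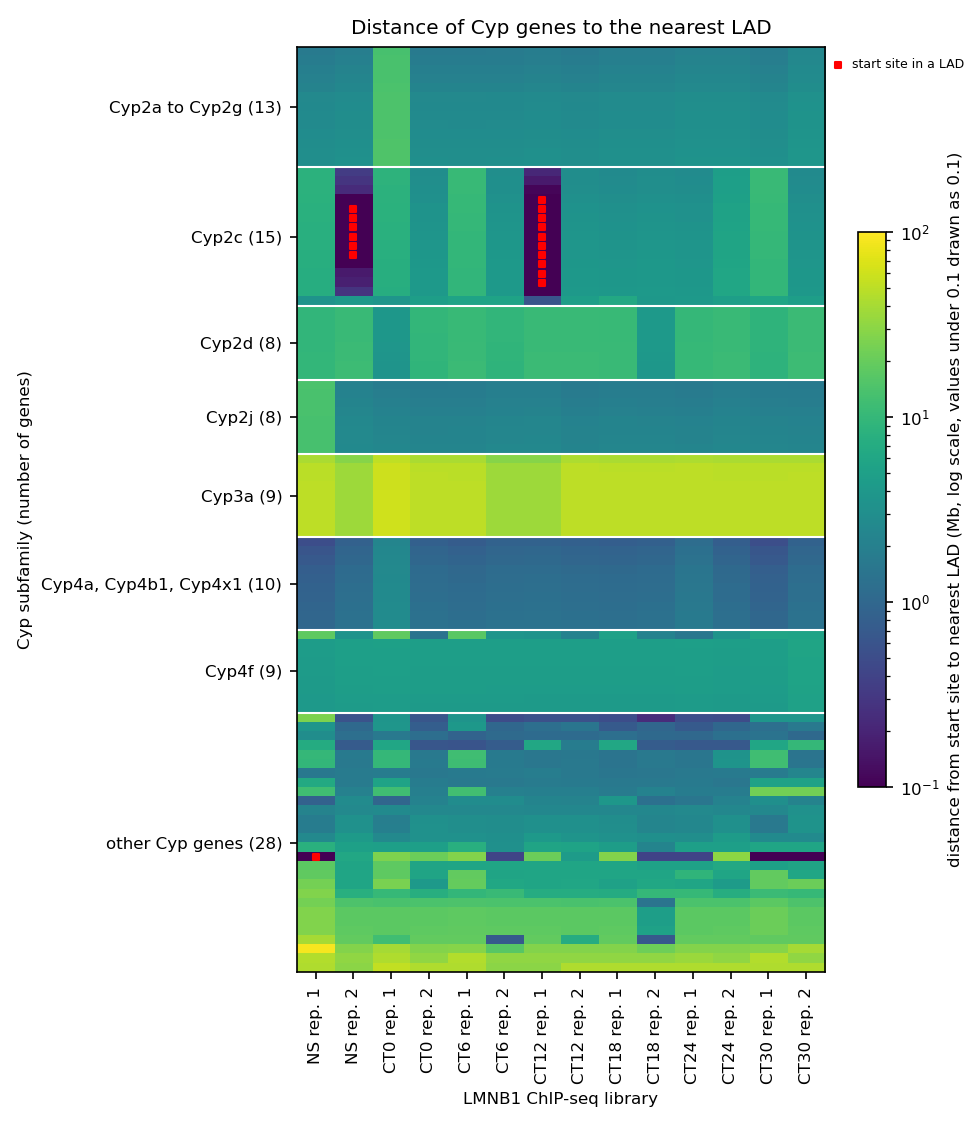
Each row is 1 of the 100 Cyp genes, grouped by subfamily and ordered by position within a cluster or by median distance among the other genes (y axis), each column is a library (x axis), and the colour gives the distance from the start site to the nearest LAD in Mb on a log scale, with red squares for start sites in a LAD. Red squares appear in the Cyp2c rows of NS replicate 2 and CT12 replicate 1 and at Cyp24a1 in NS replicate 1, and rows of a cluster change together.

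Distances to the nearest LAD ranged widely between loci. The median over libraries ranged from 0.570 Mb (Cyp7b1) to 50.2 Mb (Cyp3a59). Across members the quartiles of these medians were 2.11, 3.44 and 9.91 Mb, against 1.33, 3.71 and 8.06 Mb for all genes. Few members were close to LADs, with a median under 1 Mb in 4 of 100 (Cyp7b1, Cyp4x1, Cyp4a29 and Cyp4a12a) against 20.8% of all genes, and 31% of members came within 1 Mb of a LAD in at least 1 library against 40.9%. At the far end, 25% of members and 19.7% of all genes had a median above 10 Mb. The share of members within 1 Mb of a LAD was below that of all genes in 13 of 14 libraries, with NS replicate 1 (11% against 9.99%) as the exception.

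By median over the libraries, the fatty acid hydroxylase genes of the Cyp4a cluster were the genes of the large loci nearest to a LAD. The locus on chromosome 4 holds 10 members from Cyp4x1 to Cyp4b1, including Cyp4a10 and Cyp4a14, ω-hydroxylases known to be induced by fasting through the receptor PPARα. In all 14 libraries the nearest LAD was on the left, 0.515 to 2.33 Mb from the first start site (median 0.834 Mb), and Skint genes, which encode membrane proteins of skin and thymus, made up more of its genes than any other symbol. CT0 replicate 1 gave the value of 2.33 Mb, and the other 13 libraries gave at most 1.19 Mb. Cyp4a14 was 0.877 and 1.21 Mb from the LAD in the NS mice, 2.70 and 1.20 Mb at CT0, 1.12 and 1.23 Mb at CT6 and 1.25 and 1.19 Mb at CT12. In the later mice it was 1.15 and 1.20 Mb away at CT18, 1.55 and 1.14 Mb at CT24, and 0.889 and 1.23 Mb at CT30. The other genes followed in order along the chromosome, with medians of 0.834 Mb for Cyp4x1, 0.942 Mb for Cyp4a29, 0.999 Mb for Cyp4a12a, 1.11 Mb for Cyp4a12b, 1.15 Mb for Cyp4a30b and 1.22 Mb for Cyp4a10. Apart from CT0 replicate 1 the values of Cyp4a14 lie between 0.877 and 1.55 Mb, and a difference between time points was not detected (F ratio 0.958, exact permutation test, p = 0.588, adjusted p = 0.935).

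Further clusters of fatty acid and eicosanoid enzymes also stayed outside LADs. Of 29 members with this role, 0 were in a LAD in any library. The 8 Cyp2j genes on chromosome 4, epoxygenases of arachidonic acid, had a LAD on the left in 13 libraries, 1.70 to 2.10 Mb from Cyp2j13, the first gene of the locus. In NS replicate 1 the nearest LAD was on the right, 13.4 Mb from the other end of the locus. For the 8 Cyp4f genes on chromosome 17, ω-hydroxylases of leukotrienes and other lipids, the nearest LAD was on the right in all 14 libraries, 4.08 to 5.14 Mb from Cyp4f13, the last gene of the locus. Olfactory receptor genes (Olfr) were the leading symbol of that LAD in 13 libraries. The ratio of the largest to the smallest distance over the libraries, computed on distance plus 100 kb, was 1.23 to 1.25 for these 8 Cyp4f genes, the 8 lowest values among the 100 members. For the ninth Cyp4f gene, Cyp4f18 on chromosome 8, the ratio was 12.7 and the distance 1.37 to 18.6 Mb. Over the 100 members the median ratio was 4.76, and over all genes it was 7.32. Cyp4v3, a fatty acid hydroxylase gene on its own on chromosome 8, had a median distance of 1.16 Mb and a range of 0.702 to 4.02 Mb.

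Drug-metabolising clusters differed widely in their distance to LADs. The Cyp2a to Cyp2g locus on chromosome 7 holds 13 members, among them Cyp2b10, the target gene of the receptor CAR. A LAD led by vomeronasal receptor genes (Vmn) in 13 libraries lay to its left, 1.72 to 2.45 Mb from the first gene (Cyp2s1) in 13 libraries and 13.5 Mb from it in CT0 replicate 1. Cyp2b10 accordingly ranged from 1.80 to 13.6 Mb with a median of 1.96 Mb. The 8 Cyp2d genes on chromosome 15, from Cyp2d22 to Cyp2d26, were 3.50 to 11.4 Mb from a LAD. Cyp2d22 was 3.91 Mb away in CT0 replicate 1, 4.22 Mb in CT18 replicate 2, and 9.04 to 11.0 Mb in the other 12 libraries.

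The 8 Cyp3a genes of the chromosome 5 locus, which include the main inducible drug-oxidising enzymes of liver, had the largest median distances of all members. Cyp3a11, Cyp3a25, Cyp3a41a, Cyp3a44 and Cyp3a59 had medians of 50.0, 50.1, 49.8, 49.9 and 50.2 Mb. For this locus no LAD was found towards the chromosome end in any library, and the nearest LAD on the left was 35.9 to 59.5 Mb away. Cyp3a11 was 36.5 Mb from a LAD in NS replicate 2 and CT6 replicate 2, 36.6 Mb in CT12 replicate 1, and 49.9 to 60.1 Mb in the other 11. Cyp2e1, an enzyme for ethanol and other small molecules on chromosome 7, likewise had LADs on the left only, at 31.9 to 45.5 Mb. Cyp1a1 and Cyp1a2, targets of the aryl hydrocarbon receptor on chromosome 9, had a median of 17.7 Mb each and came closest in CT18 replicate 2, with 4.85 Mb.

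The 7 genes of bile acid and sterol metabolism were in a LAD in 0 libraries but included the member with the smallest median. Cyp7b1, which hydroxylates oxysterols in the alternative pathway of bile acid synthesis, begins at 18243338 on chromosome 3. In the NS mice it was 25.8 and 0.587 Mb from a LAD, at CT0 3.67 and 0.631 Mb and at CT6 3.58 and 0.500 Mb. CT12 and CT18 mice gave 0.553 and 0.553 Mb and 0.516 and 0.237 Mb. At CT24 the distances were 0.519 and 0.495 Mb, and at CT30 3.77 and 3.75 Mb. The short distances came from a LAD of 0.684 to 1.54 Mb that was called in 9 libraries and not in NS replicate 1, CT0 replicate 1, CT6 replicate 1 and both CT30 replicates. Those 5 libraries are the ones with bin sizes of 31 to 61 kb, the other 9 having 4 to 19 kb, and the part of the bin size was not tested. At CT30 both mice had such a bin size, so time point and bin size cannot be told apart there. The F ratio between time points was 2.45 (exact permutation test, p = 0.0766, adjusted p = 0.845). Its unadjusted p was 0.0108 with the number in the deposited names as a term and 0.0422 with distances not logged, both from the exact permutation test, with adjusted p of 0.693 and 0.714.

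Cyp7a1, the rate-limiting enzyme of the classical pathway of bile acid synthesis, begins at 6275633 on chromosome 4 and was the third of these genes by median distance, after Cyp39a1. A LAD to its left was 0.606 to 0.756 Mb away in 7 libraries and 1.80 Mb away in CT12 replicate 2. No LAD was found on that side in the other 6, and the nearest LAD was then 5.91 to 10.1 Mb to the right. The 2 mice of a time point took different sides in NS, CT0, CT12 and CT18. Only at CT6 (0.606 and 0.743 Mb) and CT24 (0.690 and 0.696 Mb) were both mice near a LAD, and only at CT30 (5.91 and 10.1 Mb) were both far. The F ratio was 1.85 (exact permutation test, p = 0.205, adjusted p = 0.922).

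Cyp39a1, an oxysterol hydroxylase, had a median of 1.17 Mb and a range of 0.897 to 2.92 Mb. Cyp27a1, the mitochondrial sterol hydroxylase of the alternative pathway, ranged from 4.12 to 24.7 Mb (median 6.03 Mb). Cyp8b1, which directs synthesis to cholic acid, ranged from 16.5 to 91.1 Mb (median 28.0 Mb), with LADs on the left only. Enzymes of the classical pathway thus stood at medians of 1.28 Mb (Cyp7a1) and 28.0 Mb (Cyp8b1).

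Of the 6 members of steroid hormone synthesis, 0 were in a LAD in any library. Cyp17a1, needed for androgens, was the nearest, with a median of 2.20 Mb and a range of 0.846 to 3.83 Mb. Cyp11a1, which makes pregnenolone from cholesterol, had a median of 18.0 Mb. Of the 6 members of vitamin D and retinoid metabolism, Cyp24a1 was the only one in a LAD. Cyp26a1, which degrades retinoic acid, had a median of 1.66 Mb, and Cyp2r1, the liver enzyme that starts the activation of vitamin D, had one of 5.80 Mb.

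Over CT0 to CT30, each gene's log2 distance (distance in kb plus 100) was compared between the 6 time points. The test was exact, using each of the 10395 ways to split 12 libraries into 6 pairs, with Benjamini-Hochberg adjustment over the 20384 genes whose distance varied. Of these genes 0 were called at adjusted p below 0.05 (0%), and 1125 (5.52%) had an unadjusted p below 0.05. All 100 members were tested, 0 were called after adjustment, and 2 had an unadjusted p below 0.05, a count no higher than the share over all genes gives. The 2 members were Cyp51 (F ratio 5.01, exact permutation test, p = 0.0216, adjusted p = 0.810) and Cyp27b1 (F ratio 3.53, p = 0.0458, adjusted p = 0.810, same test). On simulated data the same procedure made no adjusted call even for the largest shifts it was given, so the adjusted count of 0 does not show that distances were constant.

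Cyp51, the demethylase of lanosterol in cholesterol synthesis, was near a LAD of 1.84 to 2.17 Mb on its right in 10 libraries. The CT0 mice gave 5.48 and 1.84 Mb, the CT6 mice 1.64 and 1.64 Mb, the CT12 mice 1.76 and 1.72 Mb and the CT18 mice 1.63 and 1.65 Mb. At CT24 the distances were 1.66 and 1.53 Mb, and at CT30 5.35 and 5.37 Mb, while the NS mice had 6.57 and 1.79 Mb. High values were thus found in both CT30 mice and in replicate 1 of NS and CT0, the 4 libraries with bin sizes of 31 to 61 kb other than CT6 replicate 1 (35 kb, 1.64 Mb). Leaving out 1 library at a time moved the unadjusted p of Cyp51 between 0.00375 and 0.102.

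Cyp27b1, the enzyme that activates vitamin D in the kidney, showed a similar division of libraries. It was 11.9 and 1.96 Mb from a LAD at CT0, 12.4 and 2.05 Mb at CT6, 1.96 and 1.96 Mb at CT12 and 1.76 and 2.13 Mb at CT18. At CT24 both mice had 1.80 Mb and at CT30 both had 22.7 Mb, while the NS mice had 11.9 and 2.10 Mb. The 5 high values are those of the libraries with bin sizes of 31 to 61 kb, in which neither the LAD on the left nor the olfactory receptor LAD on the right was called.

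**Figure D4:**
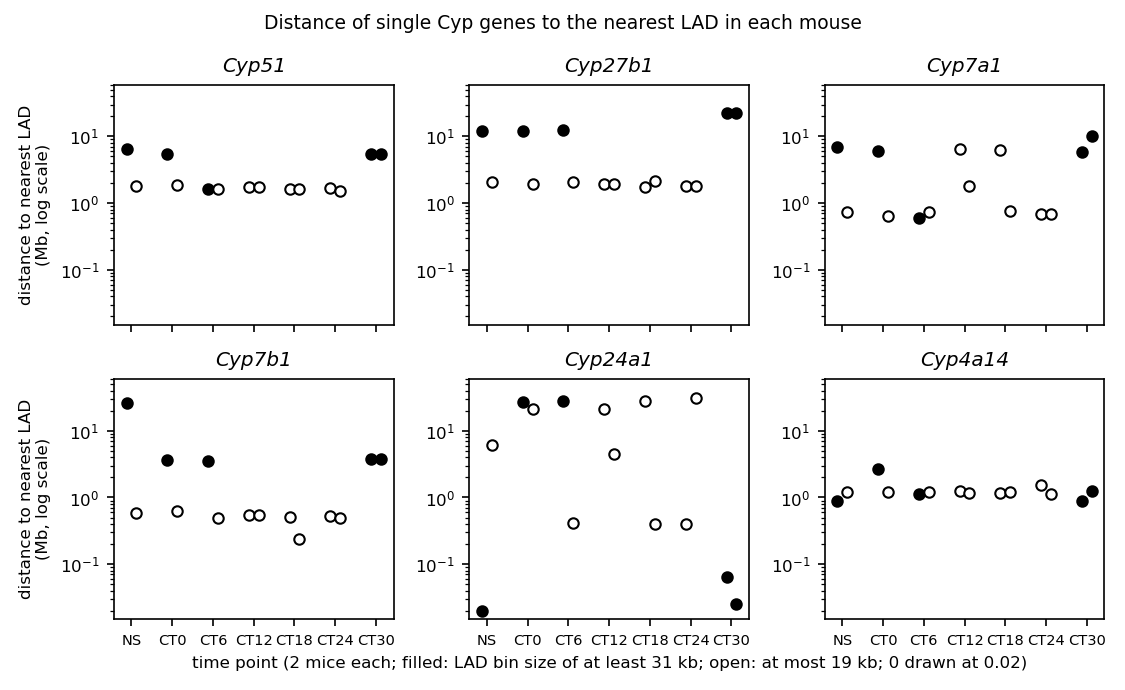
Distance to the nearest LAD (y axis, Mb, log scale, a distance of 0 drawn at 0.02) is plotted for each mouse by time point (x axis) for 6 Cyp genes, with filled circles for libraries with a bin size of at least 31 kb and open circles for at most 19 kb. Both CT30 mice lie high for Cyp51 (5.35 and 5.37 Mb) and Cyp27b1 (22.7 Mb), low for Cyp24a1 (0.0649 and 0.0249 Mb), and Cyp4a14 stays between 0.877 and 2.70 Mb.

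The count of 2 members moved with single libraries. Without CT0 replicate 2 it was 16, of which 13 were the genes of the Cyp2a to Cyp2g locus, which share their LADs (exact permutation test, unadjusted p = 0.0239 and adjusted p = 0.334 each). CT0 was then represented by replicate 1 alone, with the nearest LAD 13.5 Mb from that locus. Without CT18 replicate 1 it was 4, namely Cyp19a1, Cyp1a1, Cyp1a2 and Cyp11a1 on chromosome 9. It was 0 without CT12 replicate 1, CT12 replicate 2, CT18 replicate 2, CT24 replicate 2 or CT30 replicate 2.

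Between NS and CT0 and between consecutive time points, 0 members were in a LAD in both mice of the later and neither mouse of the earlier time point, as against 2.82% of all genes. In the opposite direction the count was also 0, against 3.63% of all genes. With 2 mice on each side a single gene cannot reach p below 0.05, so no test was made. Had replicate 1 alone been used, 10 members would have been counted as gained and 11 as lost. The 10 Cyp2c genes of CT12 replicate 1 then enter and leave, and Cyp24a1 is lost between NS and CT0.

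Replicate mice often differed in distance. The distance (plus 100 kb) of the 2 mice differed more than 2-fold for 39 of 100 members in NS and 52 at CT0, against 56.9% and 49.5% of all genes. At CT24 only 4 members did, against 20.7% of all genes, while at CT12 18 did, against 14.5% of all genes. The counts were 25 at CT6, 18 at CT18 and 19 at CT30, against 36.5%, 33.9% and 23.9% of all genes. Genes of a locus count separately here. The 18 members at CT12 include all 14 genes of the Cyp2c locus, which were in or near a LAD in CT12 replicate 1 only. The median distance of the members in a library was 3.70 to 7.82 Mb in the 5 libraries with bin sizes of 31 kb or more and 2.83 to 4.55 Mb in the 9 libraries with 19 kb or less. All genes behaved likewise, with 5.46 to 9.36 Mb and 2.08 to 4.21 Mb.

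Genes that act with P450 enzymes or control them were outside LADs, as were 82.9% of all genes. Of 6 redox partners 0 were in a LAD in any library, and 0 had an unadjusted p below 0.05 over time (exact permutation test). Por, the reductase that feeds electrons to microsomal P450 enzymes, had a median distance of 39.8 Mb. Cyb5a, the cytochrome that assists some of them, was the closest, with 0.594 Mb. Cyb5b, Cyb5r3, Fdx1 and Fdxr, the further carriers of electrons, had medians of 4.05, 11.0, 11.9 and 21.5 Mb. All 10 regulators of Cyp genes gave 0 in the same counts. The xenobiotic receptor Nr1i2 was 1.12 Mb from a LAD by median and Ahr 2.36 Mb, while Nr1i3, which encodes CAR, was 21.2 Mb away. Arnt (3.74 Mb), Ppara (13.6 Mb), the bile acid receptor Nr1h4 (9.54 Mb), its target Nr0b2 (12.6 Mb), Nr5a2 (3.71 Mb), Hnf4a (12.3 Mb) and Rxra (7.24 Mb) lay between these. With 6 and 10 genes, these counts do not set the lists apart from all genes.

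Few neighbours of Cyp genes were in LADs. Among the 1127 other protein-coding genes within 1 Mb of a member, 20 (1.77%) were in a LAD in at least 1 library. The share of all genes was 17.1%. A gene within 1 Mb of a member cannot be in a LAD where that member is more than 1 Mb from every LAD. In at least 1 library, 31% of members came within 1 Mb of a LAD, against 40.9% of all genes. The neighbour share is thus not independent of the member distances, and their part in the low share was not tested. Members had a median of 36 protein-coding start sites within 1 Mb, and all genes had 30. The median GC content of the 1 Mb around the start site was 43.4% for members, 44.3% for all genes, 39.8% for genes in a LAD in at least 1 library and 37.6% for genes in a LAD in all 14. The Cyp2c locus had 40.0%, close to that of genes in LADs. The Cyp2j locus had 39.1% and a median of 10.5 start sites within 1 Mb, and none of its 8 genes was in a LAD in any library.

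The start sites of Cyp genes were CpG-poor although most of the genes lay outside LADs. In the 300 bases around the GENCODE start site, read from GRCm38.p6, members had a median of 3 CpG dinucleotides and all genes had 12. Genes never in a LAD had 14, and genes in a LAD in at least 1 library had 2. Of the members, 13% had 10 or more, against 54.5% of all genes. The 69 members of the large loci had a median of 2, and 2.90% of them had 10 or more, whereas among the 31 other members the median was 5 and the share 35.5%. Median observed over expected CpG was 0.154 in members, 0.540 in all genes and 0.174 in genes in a LAD in at least 1 library.

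**Figure D5:**
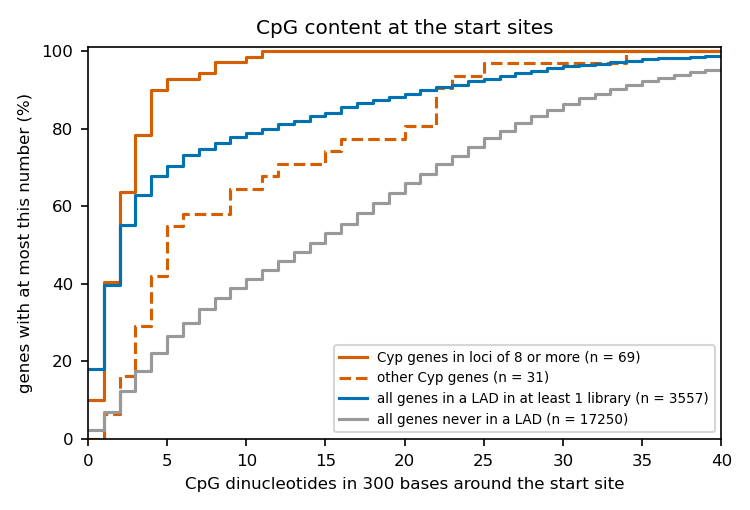
Curves give the percentage of genes (y axis) with at most a given number of CpG dinucleotides in the 300 bases around the start site (x axis) for Cyp genes in loci of 8 or more members (solid orange), other Cyp genes (dashed orange), all genes in a LAD in at least 1 library (blue) and all genes never in a LAD (grey). At 3 CpG dinucleotides the curves stand at 78.3%, 29.0%, 62.8% and 17.5%, so the Cyp genes of large loci lie with the genes found in LADs.

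Short motifs were counted on both strands of the same 300 bases. TATAAA occurred in 33% of members, 12.7% of all genes and 25.2% of genes in a LAD in at least 1 library. By locus it was found in 75% of the Cyp2d windows, 64.3% of Cyp2c, 62.5% of Cyp3a, 38.5% of Cyp2a to Cyp2g, 20% of Cyp4a, 12.5% of Cyp2j and 0% of Cyp4f windows on chromosome 17. AGGTCA occurred in 28% of members and 14.8% of all genes, with 62.5% at the Cyp3a locus, 53.8% at Cyp2a to Cyp2g, 30% at Cyp4a, 25% at Cyp2d, 14.3% at Cyp2c, 12.5% at Cyp2j and 0% at Cyp4f. CACGTG, the letters of the E-box bound by the clock factors CLOCK and BMAL1, occurred in 2% of members and 7.82% of all genes. It occurred in 3.82% of genes in a LAD in at least 1 library and in 8.64% of genes never in one. The motif holds a CpG dinucleotide, and the part of the low CpG content of members in this count was not tested. Genes of a locus share sequence by duplication, and a match describes the letters of the window only.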

How the data were processed

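LMNB1 ChIP-seq LADs of 14 mice were used as deposited, each LAD as a start and an end in base pairs (mm10). According to the methods and the submitters' processing notes, the authors mapped the reads (Bowtie2, given as version 2.25.0), removed duplicates with Picard, and called LADs with EDD in each mouse against input, of which the labels list 1 per time point. Inputs and RNA-seq were not analysed here. Start sites came from GENCODE vM21, and LAD state, distance, gene neighbourhood and sequence windows were computed with Python 3.11.15, NumPy 2.4.6 and pandas 2.3.3. All 100 Cyp genes entered without a filter on low values. F ratios of log2(kb + 100) between the CTs were tested for each gene by exact permutation and adjusted by Benjamini-Hochberg over 20384 genes. The same procedure was run on data simulated with the means and SDs of the real genes. There, large shifts gave unadjusted but no adjusted calls. Replicates are separate mice. Of the members, 77 matched a RefSeq start-site window, 71 of them within 100 bp of the GENCODE site.

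Members and lists were chosen with earlier results of these data known. Named genes were every member in a LAD in at least 1 library, the 10 other members with the smallest and the 5 with the largest median distance, 13 fixed liver genes, the redox partners and regulators, and members with unadjusted p below 0.05. Regional GC content, replicate ratios, the split by bin size and further genes named as ends or neighbours of a locus were added after values were seen. Alternatives were LADs of at least 1 Mb, LADs joined across 100 kb, gene bodies, other pseudocounts, a replicate block, the number in the deposited names, and each library left out.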

Additional observations from a re-analysis of the deposited data

How the results depend on the processing

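LADs carry no score and the read depth is unknown, so a threshold on LAD strength could not be tried, and 2 mice per time point set the precision. The adjusted count of members that varied over CT0 to CT30 was 0 in all 8 alternatives and in all 12 fits without 1 library, where the lone mouse of a time point was assumed to vary like the others. Since simulated shifts were not called after adjustment either, this constancy says nothing about stability. With the replicate block it was 0, with 1 member (Cyp51) at an unadjusted p below 0.05 and 1085 of all genes, where 1125 had been found without it. The deviations of mice with the same replicate number correlated at -0.162 to 0.356 over 15 pairs of time points (median 0.0220, 4 pairs above 0.1), so the numbers were not taken to pair the mice. The number in the deposited names as a term gave 0 adjusted and 3 unadjusted members (Cyp51, Cyp27b1 and Cyp7b1). Counts of all genes at an unadjusted p below 0.05 went up to 2036 with LADs of at least 1 Mb, and from 617 to 2419 without 1 library. Members in a LAD in at least 1 library, 11 as reported, numbered 1 with LADs of at least 1 Mb, 1 without the 3 libraries numbered 3 in the deposited names (an alternative chosen after seeing the data), and 7 to 11 without 1 library. Members gained or lost between consecutive time points, 0 as reported, numbered 10 and 11 with replicate 1 alone, and with replicate 2 alone 6 were lost. The mean number of members in a LAD per library, 1.21, was 0.538 to 1.31 without 1 library and 0.0714 with LADs of at least 1 Mb. With gene bodies in place of start sites 12 members overlapped a LAD in at least 1 library. The cause of these shifts was not tested beyond the LADs and libraries left out.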
